A study of Mus musculus with 4 samples.

Results

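Transcripts of 9 genes encoding serum response factor (SRF), its coactivators and partner factors, and the MEF2 factors were examined in cultured mouse aortic smooth muscle cells. The members were taken by symbol from the deposited table of 25965 genes, and all 9 were found: Srf, Myocd, Mkl1, Mkl2, Mef2a, Mef2c, Mef2d, Elk1 and Fhl2. Mkl1 and Mkl2 are the older symbols of Mrtfa and Mrtfb. Polyadenylated RNA had been sequenced in 4 libraries of 1 group, untreated wild-type cells from the aortic media of male C57Bl/6 mice aged 8 to 14 weeks. The cells had been kept in DMEM with 10% FCS for 3 to 5 passages. The labels do not say which library had which passage or whether the cultures came from separate animals, so the spread reported here is that between these libraries and may be partly technical.

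SRF binds DNA as a dimer through its MADS domain at a sequence called the CArG box, found near many genes of the contractile apparatus and near immediate early genes. Its partners compete for it: myocardin and the related factors MRTF-A and MRTF-B (encoded by Myocd, Mkl1 and Mkl2) direct it to cytoskeletal and contractile genes, while ternary complex factors such as ELK1 direct it to growth-responsive genes. MRTFs are held in the cytoplasm by monomeric actin, so their activity is set largely by location and not by transcript level. MEF2 factors carry a related MADS domain, bind an AT-rich box, and are restrained by class IIa histone deacetylases.

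The CArG box and the MEF2 box were searched for on both strands of the RefSeq promoter windows of GRCm38.p6, each running from 250 bases before to 50 bases after an annotated start. Windows were found for 8 of the 9 members, 14 windows in all, and not for Myocd. The Srf window held 2 CArG boxes, CCATATAAGG from 82 to 73 and CCATAAAAGG from 62 to 53 bases before the start. Of all 32851 windows of the same length, 535 (1.63%) held at least 1 CArG box and 6 (0.0183%) held at least 2. Both Fhl2 windows held 1 CArG box, CCTTATATGG and CCAAAAAAGG. Windows of Mkl1, Mkl2, Mef2a, Mef2c, Mef2d and Elk1 held no match to it, which says only that these letters were absent from those bases. Of 30 genes listed as targets of SRF with myocardin or MRTFs, 23 had a window, and 4 of these held a CArG box. They were Myl9, Ldb3, Vcl and Actg1. The windows of Tpm1, Acta2, Cnn1, Lmod1 and Smtn held no match, which again says only that these letters were absent from those bases. Whether the boxes go with the patterns over the libraries was not tested. The 150 bases before the Srf and Fhl2 starts are given 5′ to 3′ on the strand of the gene, with the CArG boxes in capitals. The last stretch is that of Fhl1, a paralog of Fhl2.
Srf, chr17:46556163-46556312, minus strand: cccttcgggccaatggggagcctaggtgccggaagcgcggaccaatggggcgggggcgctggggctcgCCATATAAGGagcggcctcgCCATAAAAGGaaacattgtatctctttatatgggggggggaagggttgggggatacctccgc
Fhl2, start within the counted interval, chr1:43163962-43164111, minus strand: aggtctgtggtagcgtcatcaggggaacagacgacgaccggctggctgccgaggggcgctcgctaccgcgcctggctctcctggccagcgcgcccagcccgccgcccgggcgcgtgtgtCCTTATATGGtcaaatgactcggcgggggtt
Fhl2, start upstream of it, chr1:43196762-43196911, minus strand: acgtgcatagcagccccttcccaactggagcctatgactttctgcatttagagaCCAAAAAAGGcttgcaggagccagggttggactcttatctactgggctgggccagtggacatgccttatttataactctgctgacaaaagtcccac
Fhl1, chrX:56779533-56779682, plus strand: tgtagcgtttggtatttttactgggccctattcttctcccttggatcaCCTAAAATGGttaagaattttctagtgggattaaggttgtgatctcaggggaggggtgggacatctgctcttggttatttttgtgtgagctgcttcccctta

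The MEF2 box occurred in 1047 windows (3.19%), among them that of Mef2a itself, where it lies across the start. The 30 bases around it are given with the box in capitals.
Mef2a, chr7:67372841-67372870, minus strand: ggcctgactcCTAAAAATAGccccggtgtg
The upstream Fhl2 window held another match (TTATTTATAA, 31 to 22 bases before the start) and so did 1 of the 3 Mkl2 windows (TTATTTTTAA). The ETS core GGAA, read on both strands, was in every member window and in 96.0% of all windows, so it did not set the members apart.

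**Figure D1:**
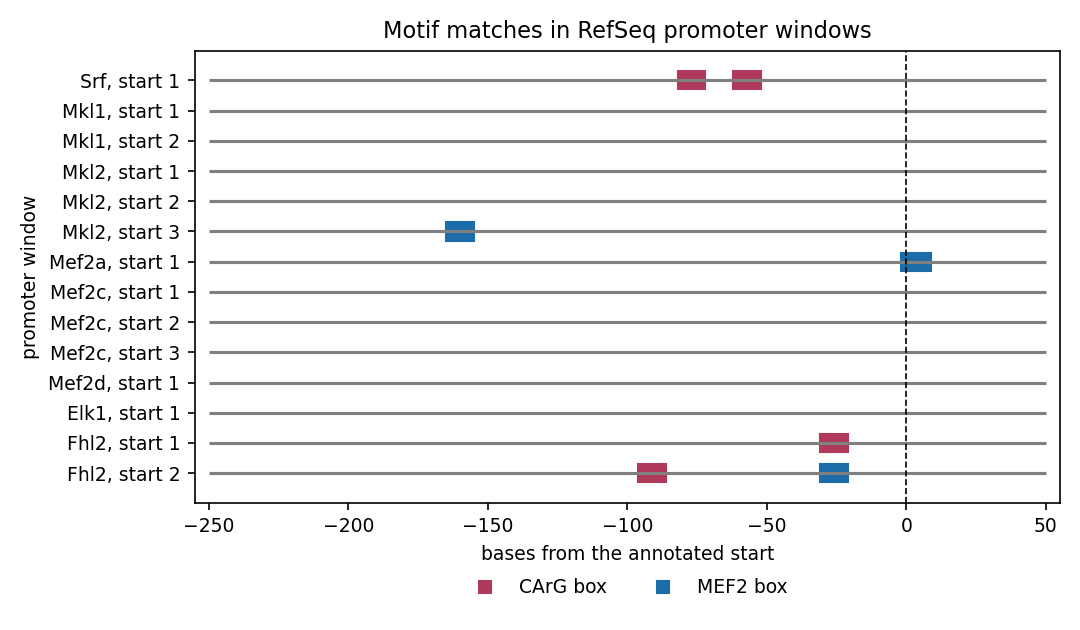
Positions of CArG boxes (red) and MEF2 boxes (blue) in the 14 RefSeq promoter windows of 8 members; the horizontal axis is the distance in bases from the annotated start, and each line is 1 window. Srf has 2 CArG boxes and each Fhl2 start has 1.

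Levels are the deposited log2 values, the log2 of a read count scaled to the depth of its library and not divided by length. Reads recovered from the table numbered 40342561 to 56793195 per library. A gene counted as detected with a value of at least 0, which is 22 to 30 reads, in 4 of 4 libraries. Of the 9 members 8 were detected, against 47.4% of all genes of the table. Relative to median-ratio size factors, the deposited values lay 0.32 and 0.10 higher in libraries 1 and 2 and differed by -0.30 and -0.12 in libraries 3 and 4, so differences between libraries of about this size are shared by many genes.

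The smooth muscle label was checked on 8 markers fixed as a list, Acta2, Tagln, Cnn1, Myh11, Smtn, Myl9, Lmod1 and Des, and all 8 were detected, with list medians of 8.20, 7.27, 8.76 and 9.37 in libraries 1 to 4. Adventitial fibroblast markers were also present, 8 of 9 detected (all but Lum), the others being Pdgfra, Dpt, Pi16, Dcn, Mfap5, Serpinf1, Ly6a and Cd34, with list medians of 7.15, 6.96, 4.86 and 4.18. Endothelial markers had 5 of 8 detected (Pecam1, Vwf, Tie1, Emcn and Egfl7, not Cdh5, Tek or Kdr) and list medians of 0.82 to 3.44. Leukocyte markers had 2 of 8 detected (Csf1r and Lyz2, not Ptprc, Cd68, C1qa or Itgam) and no reads for the defining T cell gene Cd3e. Of 12 cardiac and skeletal muscle markers 2 were detected, Tnnt2 and Tnni3, Myh6 and Myh4 had no reads, and Myh7, Actc1, Ryr2, Myl2, Myl7, Ckm, Ttn and Myh1 were below the threshold in at least 1 library.

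Srf itself was among the better expressed genes of these cells, above 79.8% of detected genes by mean level. Its values in libraries 1 to 4 were 6.48, 6.17, 7.46 and 7.94, from 2599, 2084, 3863 and 7192 reads. Libraries 3 and 4 were high and libraries 1 and 2 low, with a 3.39-fold range between library 4 and library 2. The SD of 0.82 compares with 0.026 from counting error alone, and 95.7% of the 1519 detected genes within 0.5 of its mean had a smaller SD. With median-ratio size factors the SD of Srf was 1.04, so the rescaling widened its range. The summed level of the 9 fibroblast markers was 10.42 and 10.30 (log2) in libraries 1 and 2, where Srf was low, and 9.31 and 9.20 in libraries 3 and 4, where it was high. This sum mixes markers that moved in opposite directions. Cd34 (6.44, 6.96, 8.45 and 8.31) was high in libraries 3 and 4, whereas Dcn (6.53, 5.35, 3.54 and 2.40) was low there. A sum without Cd34 was not taken. The summed level of the 8 smooth muscle markers was 13.04, 11.91, 13.57 and 14.07 (log2) in libraries 1 to 4, the library order of Srf. The part of cell composition in the Srf values was not tested, and in bulk RNA fewer cells of a type and less RNA per cell cannot be told apart.

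Of the myocardin family, Mkl1, the MRTF-A gene, was the leading member. Mkl1 had values of 6.61, 6.06, 5.91 and 6.09 in libraries 1 to 4, a mean of 6.17 ± 0.30 (SD, n = 4). Mkl2, the MRTF-B gene, had 5.52, 4.82, 4.30 and 4.49, a mean of 4.78 ± 0.54. Both were highest in library 1 and lowest in library 3, the direction of the shift between scalings given above. With median-ratio size factors their SDs were 0.14 and 0.28, so that Mkl2 no longer exceeded an SD of 0.5.

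Myocd, whose product drives the smooth muscle programme in the vessel wall, was the member not detected. It had 51, 14, 12 and 53 reads, with exact Poisson 95% intervals of 38.0 to 67.1, 7.65 to 23.5, 6.20 to 21.0 and 39.7 to 69.3 that cover counting error only. Its values of 0.81, -1.05, -0.87 and 0.85 put libraries 1 and 4 above the detection threshold and libraries 2 and 3 below it. The intervals of the former do not overlap those of the latter, but they are in reads and not scaled for depth. With median-ratio size factors the values were 0.49, -1.14, -0.58 and 0.97, so the gap between libraries 1 and 3 was narrower but kept its direction. Per kilobase of merged exon, Mkl1 accounted for 78.4 ± 2.9% (SD, n = 4) of the summed level of the 3 myocardin family genes, Mkl2 for 20.5 ± 3.0% and Myocd for 1.13 ± 0.67%. The share of Myocd was between 0.534% in library 2 and 2.01% in library 4.

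The MEF2 family was carried by Mef2d and Mef2a. Mef2d, the most even member on the deposited scale though not with median-ratio size factors (SD 0.24, against 0.14 for Mkl1), had 6.86, 6.54, 6.49 and 6.85, a mean of 6.68 ± 0.20, and 22.5% of detected genes of like level had a smaller SD. Mef2a had 6.06, 5.22, 5.79 and 5.92, a mean of 5.75 ± 0.37 with library 2 lowest. Mef2c, the MEF2 gene known for its part in heart and vessel development, had 4.16, 3.32, 3.70 and 4.30, a mean of 3.87 ± 0.45, again lowest in library 2. The summed level of the endothelial markers (log2) was 6.19, 5.75, 6.30 and 4.71, and their part in the Mef2c values was not tested. The remaining family gene, Mef2b, had 13 reads in library 3 and none in the other libraries, where a count of 0 allows up to 3 reads by the 3-count limit used here for counts of 0, which is not the exact interval given for Myocd.

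How much of the MEF2 level fell to each gene rested on the length used. Per kilobase of merged exon, Mef2d took 78.8 ± 2.9%, Mef2a 16.9 ± 2.4% and Mef2c 4.31 ± 0.70% of the 3-gene sum. Mef2a and Mef2c have 12 and 31 annotated transcripts with merged exons of 14681 and 15715 bases, against longest transcripts of 5538 and 6277 bases. Per kilobase of the longest transcript the shares were 61.2 ± 4.2%, 31.3 ± 3.6% and 7.53 ± 1.10%, in the same order.

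Elk1, the ternary complex factor gene among the members, was one of the lower members at 4.12, 3.17, 3.36 and 3.48 in libraries 1 to 4, a mean of 3.53 ± 0.41 with library 1 highest. Its paralogs were higher. Elk3, encoding the factor also called Net, averaged 6.47 ± 0.13, and Elk4, encoding SAP-1, averaged 4.67 ± 0.17. Per kilobase of merged exon Elk3 exceeded Elk1 by 3.18 ± 0.30 log2 units and Elk4 exceeded it by 0.89 ± 0.27, in 4 of 4 libraries each. Elk1 took 8.51 ± 1.61% of the summed level of the 3 genes. Elk1 shares part of its interval with Uxt on the same strand, and reads of overlapping genes may have been divided between them.

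Fhl2, encoding a LIM-domain protein that binds SRF and is itself a known SRF target, was the member with the highest mean level per length, ahead of Srf in 3 of 4 libraries. Its values were 7.31, 6.18, 6.42 and 7.37, with libraries 1 and 4 about 1 log2 unit above libraries 2 and 3, and a mean of 6.82 ± 0.61. With median-ratio size factors they were 6.99, 6.09, 6.72 and 7.49, so the size of the gap between libraries 1 and 3 depended on the scaling. The counting error alone gives an SD of 0.027. Among its paralogs, Fhl1 was higher at 9.34 ± 0.64 and Fhl3 averaged 6.81 ± 0.54, while Fhl4 had 52, 18, 29 and 19 reads and Fhl5 none. Fhl1 had its highest value, 10.24, in library 1 and Fhl3 had its lowest, 6.19, in the same library. Per kilobase of merged exon Fhl1 exceeded Fhl2 by 1.55 ± 0.45 in 4 of 4 libraries, and Fhl3 minus Fhl2 was 0.16 ± 0.79 (exact permutation p = 0.75, adjusted p = 0.75) with merged exons, negative in library 1, and -0.10 with longest transcripts.

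**Figure D2:**
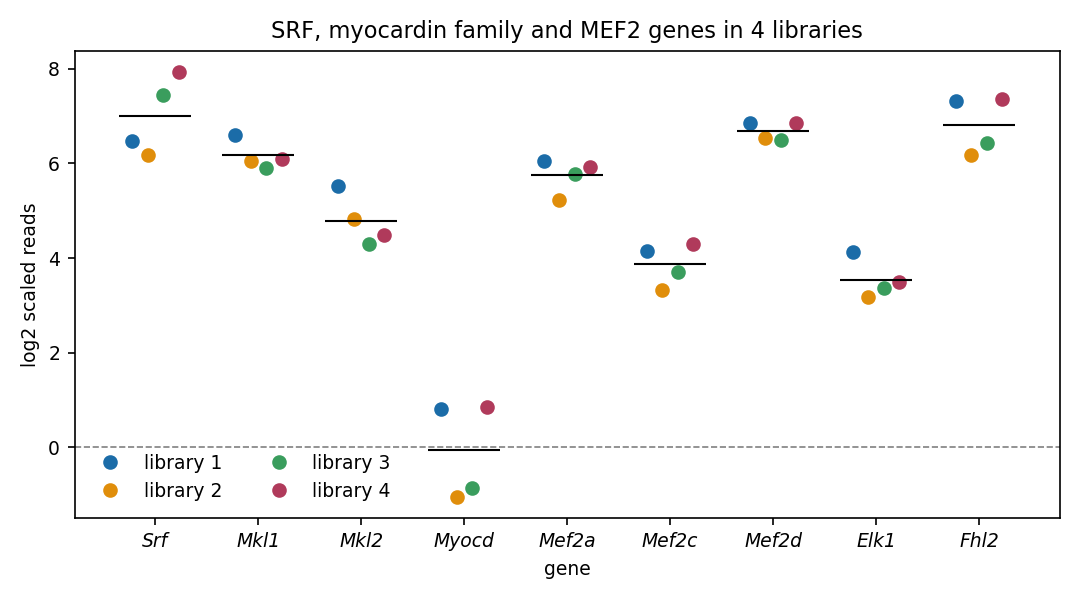
Deposited log2 values (vertical axis, log2 scaled reads) of the 9 genes in libraries 1 to 4, shown as points, with the mean as a line; the dashed line is the detection threshold of 0. Srf is high in libraries 3 and 4, Fhl2 and Myocd in libraries 1 and 4, and Mkl2 in library 1.

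Ordered by level per kilobase of merged exon, the members ran Fhl2 (5.90 ± 0.61), Srf (5.48 ± 0.82), Mef2d (4.10 ± 0.20), Mkl1 (3.56 ± 0.30), Mef2a (1.87 ± 0.37), Mkl2 (1.61 ± 0.54), Elk1 (1.11 ± 0.41), Mef2c (-0.11 ± 0.45) and Myocd (-2.75 ± 1.04). Differences were taken within each library for the 36 pairs of members and for 4 pairs of a member with a paralog, and 37 of the 40 had 1 sign in 4 of 4 libraries. Flipping the signs of the 4 values in all 16 arrangements, an exact permutation test with both tails counted, gave p = 0.13 for each of these 37 and, after Benjamini-Hochberg adjustment over all 40, p = 0.135. No smaller p can be reached with so few libraries, so none of the differences could pass a threshold of 0.05. Neighbours that changed places between libraries were Fhl2 and Srf, with Fhl2 minus Srf at 0.42 ± 0.80 (exact permutation p = 0.375, adjusted p = 0.395), and Mef2a and Mkl2, at 0.26 ± 0.57 (exact permutation p = 0.5, adjusted p = 0.513). Mef2a exceeded Mkl2 in libraries 3 and 4 and was lower in libraries 1 and 2. Srf exceeded Mkl1 by 1.92 ± 0.99, a difference between 0.95 and 2.92 in single libraries, and Mkl1 exceeded Mkl2 by a narrower 1.95 ± 0.26.

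The order from Fhl2 to Myocd was the same per kilobase of the longest transcript, but the distances were not. Differences of Mef2a and Mef2c from members outside the MEF2 family and from Mef2d moved by more than 1.5-fold. Mef2d exceeded Mef2a by 2.23 ± 0.27 with merged exons and by 0.97 ± 0.27 with longest transcripts, and Mef2a exceeded Mkl2 by 1.55 ± 0.57 with the latter, in 4 of 4 libraries. Mkl2 and Elk1, at 0.50 ± 0.33 with merged exons, then differed by 0.02 ± 0.33, Mef2d exceeded Mkl1 by 0.22 in 3 of 4 libraries against 0.54 in 4 of 4, and Mkl2 exceeded Mef2c by 0.51 in 3 of 4 against 1.72 in 4 of 4. The deposited Srf interval runs 1490 bases past the annotated gene used for lengths, and that of Fhl2 leaves out its upstream start. With lengths taken from the deposited intervals, 4370 bases for Srf against 2893 and 1563 for Fhl2 against 1897, Fhl2 minus Srf was 1.29, both changes adding to it.

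**Figure D3:**
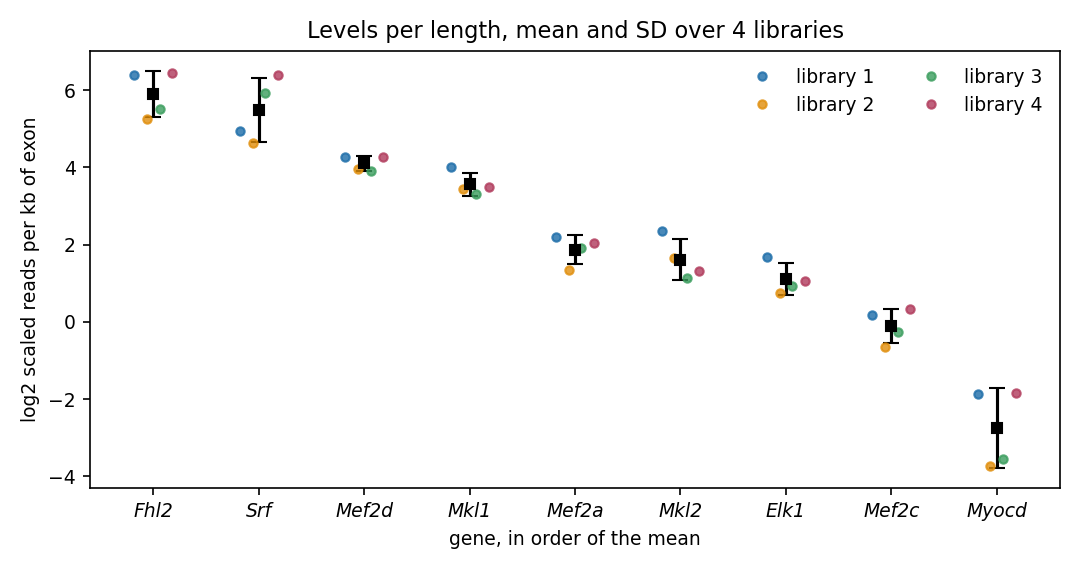
Level per kilobase of merged exon (vertical axis, log2) of the 9 genes in order of their mean; squares and bars are the mean and SD over 4 libraries and points are single libraries. The means run from Fhl2 at 5.90 to Myocd at -2.75. Neighbours whose single libraries overlap are Fhl2 with Srf, Mef2d with Mkl1, Mef2a with Mkl2, and Mkl2 with Elk1.

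Of the 8 detected members 3 had an SD above 0.5 between libraries (Srf, Mkl2 and Fhl2), close to the 40.5% of all 12306 detected genes that did. Leaving out each library in turn gave 2 to 4 such members, Srf and Fhl2 among them each time. Without library 1, and with median-ratio size factors, Mkl2 left the count.

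**Figure D4:**
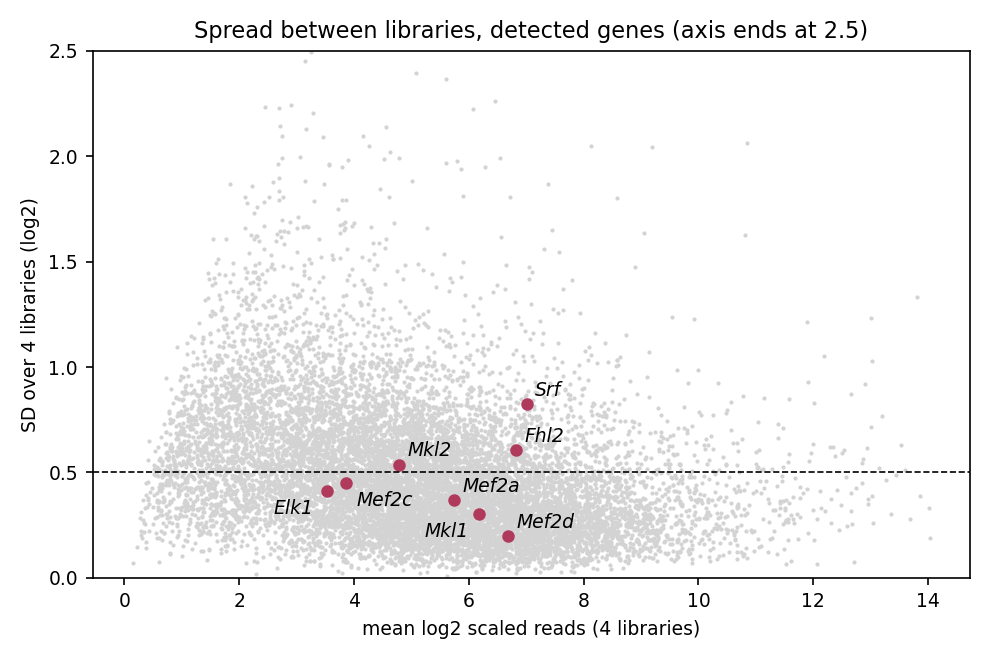
SD over 4 libraries (vertical axis, log2) against the mean level (horizontal axis, log2 scaled reads) for 12306 detected genes in grey, with the 8 detected members in red; the dashed line is an SD of 0.5 and the vertical axis ends at 2.5. Srf at 0.82 and Fhl2 at 0.61 lie in the upper part of the genes of their level and Mef2d at 0.20 in the lower part.

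Genes known as targets of SRF with myocardin or MRTFs were abundant: 29 of 30 listed genes were detected, with list medians of 9.07, 7.67, 9.12 and 9.64 in libraries 1 to 4 against 5.49, 5.22, 4.78 and 4.95 for all detected genes. Of the 29, 22 had an SD above 0.5, against 40.5% of all detected genes. The highest were the nonmuscle myosin gene Myh9 (13.36 ± 0.30), the cytoskeletal actin gene Actb (13.03 ± 1.03), the tropomyosin gene Tpm2 (12.91 ± 0.92) and Ctgf (12.38 ± 0.58), encoding a matricellular protein. Kcnmb1, a potassium channel subunit gene, was lowest with 12, 0, 0 and 34 reads, and Ldb3 was the next lowest at 3.97 ± 0.93. Detected list genes with an SD above 1 were Acta2, Cnn1, Myh11, Actg2, Lmod1, Itga8, Vcl and Actb. Each had its lowest value in library 2 except Actb, whose value in library 1 (12.05) was below that in library 2 (12.24).

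The pattern of each gene over the libraries was then compared after subtracting its own mean, with the root mean square difference over 4 libraries as the measure. The 3 genes most like Srf among the 12074 detected genes averaging 1 or more were Tpm1, a tropomyosin gene of the target list, at 0.0074, Pde4d, a cyclic AMP phosphodiesterase gene, at 0.045, and Pkp1, a desmosomal plakophilin gene, at 0.077. Tpm1 had 11.49, 11.16, 12.46 and 12.94 in libraries 1 to 4, so that it stood about 5 log2 units above Srf in each of them. Its distance is below the SD of 0.026 that counting error alone gives for Srf, so a match this close is partly luck among many genes. Of the 29 detected target genes, 14 lay within 0.5 of Srf, against 4.91% of the 12074 genes, and their median distance was 0.51 against 0.93. Also 14 of 29 put the 4 libraries in the order of Srf, with library 4 highest, then 3, 1 and 2, against 2.76% of the other detected genes. Those 14 included Acta2, Tagln, Cnn1, Myh11, Smtn, Myl9, Lmod1 and Vcl. All 8 smooth muscle markers used to check the label belong to the target list, and 7 of them had the order of Srf. The target list is therefore not separate from the cell type markers. With median-ratio size factors 19 of 29 had that order, against 4.27% of genes. When 1 library was left out, the order of the remaining 3 was shared by 26 of 29 without library 1 (10.8% of genes), 15 without library 2 (8.68%), 20 without library 3 (7.96%) and 14 without library 4 (6.47%). Target genes within 0.5 of Srf then numbered 21 (6.93% of genes), 16 (15.2%), 15 (4.44%) and 14 (14.0%), so that the share of all genes was higher without library 2 or library 4 than the 4.91% over 4 libraries, with little change in the count of targets. Among the fibroblast markers, Dpt (7.15, 7.02, 2.32 and 1.92) and Serpinf1 (8.53, 8.28, 4.86 and 4.18) were low in libraries 3 and 4, whereas Cd34 (6.44, 6.96, 8.45 and 8.31) was high there. The summed leukocyte level (log2) was 5.91, 5.48, 3.78 and 3.73. The part of cell composition in this likeness was not tested.

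**Figure D5:**
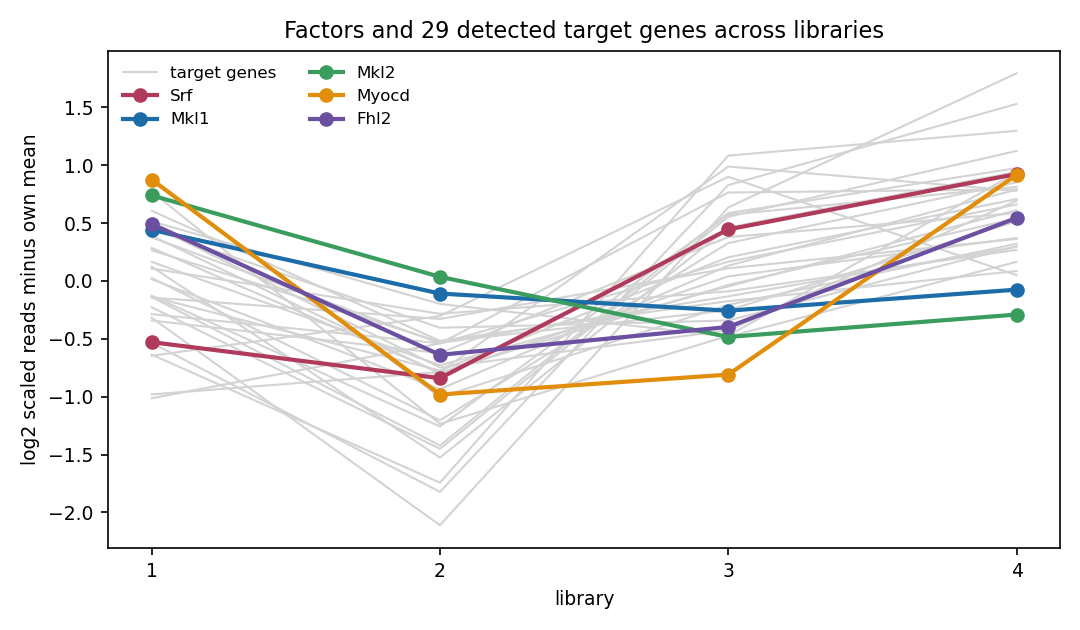
Log2 value minus the gene's own mean (vertical axis) in libraries 1 to 4 (horizontal axis) for Srf, Mkl1, Mkl2, Myocd and Fhl2 in colour and 29 detected target genes in grey; lines only join the values of 1 gene, since libraries have no order. Most grey lines are lowest in library 2 and highest in library 4, like Srf, while Mkl1 and Mkl2 are highest in library 1.

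The coactivator genes were about as far from Srf as genes in general were. The distance from Srf was 0.86 for Mkl1, 1.09 for Mkl2 and 0.94 for Myocd, against a median of 0.93 over the 12074 genes. It was 0.23 between Mkl1 and Mkl2 and 0.38 between Myocd and Fhl2. Of the 29 target genes 10 lay within 0.5 of Mkl1 and 5 within 0.5 of Mkl2, against 75.3% and 66.5% of all genes compared. Within 0.2 of Mkl1 lay 2210 genes and within 0.2 of Mkl2 1804, so that both patterns were common ones. For Mkl2 the nearest genes were Cldn25 (0.017), Mylip (0.017) and Fam13b (0.019), all closer than its SD of 0.055 from counting error alone. For Fhl2 they were Arid3b (0.087), C1qtnf7 (0.091) and Mylk (0.094), the last encoding myosin light chain kinase and belonging to the target list. For Myocd they were Spats2l (0.17), Rasl11b (0.18) and Itga8 (0.22), the last an integrin gene of the target list, with 2 genes within 0.2. These distances are below the SD of 0.32 that counting error alone gives for Myocd, so which genes come nearest to it is uncertain. Itga8 had 5.57, 3.56, 4.33 and 5.74, high in libraries 1 and 4 as Myocd was. Of the 29 target genes, 16 lay within 0.5 of Fhl2 against 25.7% of all genes, and 3 within 0.5 of Myocd against 1.07%. For the remaining members the target genes within 0.5 numbered 16 for Mef2a against 52.7% of all genes, 17 for Mef2c against 42.7%, 14 for Mef2d against 71.6% and 12 for Elk1 against 64.8%.

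Targets of SRF with ternary complex factors were detected for 13 of 15 listed genes, Srf being one of them. Mcl1, a survival gene, averaged 8.97 ± 0.10, Dusp1 7.62 ± 0.17 and Ier2 7.45 ± 0.70. Egr3 and Egr4, immediate early genes, were the lowest at 19, 14, 28 and 73 and at 1, 0, 19 and 11 reads. The detected genes with an SD above 1 were Egr2 (1.72, 0.54, 3.54 and 3.61) and Arc (2.20, 2.65, 4.91 and 5.58), and both were higher in libraries 3 and 4 than in libraries 1 and 2, as Srf was. Of the other 12 detected genes of this list, 1 had the full library order of Srf, namely Egr2.

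Regulators of MRTF through actin were detected for 17 of 18 genes, with list medians of 5.05 to 6.29. Cfl1, encoding the actin-severing protein cofilin, was the highest at 11.84, 12.14, 11.86 and 12.18 in libraries 1 to 4, and Rhoa, the small GTPase gene at the head of the pathway, averaged 10.33 ± 0.09. Mical2, encoding an enzyme that depletes nuclear actin, averaged 9.02 ± 0.45 and the kinase gene Limk2 8.33 ± 0.27. Abra, encoding an actin-binding protein of striated muscle, was the gene not detected, with 56, 9, 89 and 257 reads, and Scai, a suppressor of MRTF, was low at 2.63 ± 0.17. The formin gene Diaph2 (listed as Diap2) was the detected gene with an SD above 1, at 4.12, 2.54, 1.71 and 3.15.

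Among SRF cofactors and repressors 12 of 18 genes were detected. The LIM protein gene Csrp1 was highest at 9.99 ± 0.99 with 9.45, 8.92, 10.52 and 11.08, the library order of Srf. Crip2, another LIM protein gene, averaged 9.57 ± 0.08, the homeobox gene Prrx1 7.87 ± 0.12 and Ybx1 7.84 ± 0.58. Msc, encoding a basic helix-loop-helix factor, had 4 reads in library 2 and none in the others.

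Regulators of MEF2 were detected for 14 of 15 measured genes, with list medians of 6.02 to 6.42. Hdac5, a class IIa deacetylase gene, averaged 7.62 ± 0.16, the calcineurin gene Ppp3ca 7.37 ± 0.47, the p38 kinase gene Mapk14 7.16 ± 0.23 and Camk2d 6.82 ± 0.27. Hdac9 was the gene not detected, with 118, 32, 16 and 82 reads, and the coactivator gene Ncoa2 was next lowest at 3.97 ± 0.82. Hdac4 has 2 rows in the table and was left out. Of 15 genes listed as MEF2 targets, Myocd among them, 7 were detected. Bop1 (8.42 ± 0.21) was entered in that list in error: it is a ribosome biogenesis gene, and the MEF2 target formerly called Bop is Smyd1, which had 11, 23, 7 and 9 reads. With Smyd1 in its place 6 of 15 were detected. The other high genes were Jun (7.12 ± 0.15), Myom1 (7.10 ± 1.05) and Klf6 (6.84 ± 0.49), while Myog had at most 4 reads and Lmod2 none. Myom1, a sarcomeric M-band gene, had 7.67, 5.54, 7.39 and 7.79 in libraries 1 to 4. Of the 6 listed MEF2 targets whose patterns were compared, 3 lay within 0.5 of Mef2a, against 52.7% of all genes. Within 0.5 of Mef2c lay 2 of the 6, against 42.7%, so the list as compared was not set apart by likeness to either gene. The 6 included the wrongly entered Bop1, and the comparison was not repeated without it.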

How the data were processed

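The 4 libraries were stranded poly(A) preparations of cultured cells, per the labels' protocols. According to the submitters' processing notes, reads were handled with Trim Galore, cutadapt and TopHat and the build was GRCm38. How reads were assigned to genes, and with which strand setting, is not given in the sources used here. Overlapping genes are therefore uncertain: Mef2a with Lysmd4, Mkl2 with Gm15738 and Mkl1 with Sgsm3 on opposite strands, and Elk1 with Uxt on the same strand. Members also overlap annotated genes without deposited values, among them Srf with Gm26904 and Mef2d with 1700113A16Rik, both on opposite strands. Reads of such genes may have been counted to the member. The authors deposited log2 values, which the values show to be log2 of whole reads times 1 constant per library, with 0.9 read for genes without reads. Dividing by that constant gave reads, whole to a tolerance of 0.05 for 99.7% to 99.8% of values. Totals were 56265771, 55521915, 40342561 and 56793195 reads in libraries 1 to 4, and intervals cover counting error only.

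Lengths came from GENCODE M21 (GRCm38), matched by symbol or newer symbol for 160 of 160 measured list genes, and promoters from RefSeq (GRCm38.p6). Protein comparisons listed in the plan were not made, because no protein table was at hand. With 1 group there was no comparison between groups. Differences between genes were tested within libraries by an exact sign-flip permutation test with 16 arrangements, and steps were tested on simulated data. Members and lists were chosen with earlier results of these data known. The MEF2 target list holds Bop1 by mistake for Smyd1; it was kept, and the exchange is given as an alternative. Named were all members, their paralogs and the markers on which a list is described, and of each other list the 4 highest and 2 lowest genes and detected genes with an SD above 1. The 3 most alike genes were named for members with an SD above 0.5. Some genes that the rule names are not reported here. Genes named beyond this serve as examples and were chosen after their values were seen. Alternatives were median-ratio size factors, CPM, other thresholds, other lengths, list means and leaving out each library. Python 3.11.15, numpy 2.4.6, pandas 2.3.3 and matplotlib 3.10.9 were used.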

Additional observations from a re-analysis of the deposited data

Results flagged for a closer look

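Of 95 named genes with reads, 7 had 1 library far from the other 3, judged by its gap to the nearest value over the whole range. Chance flags about 1 in 20 where the other values are free to vary. Elk3 stood at 6.66 in library 1 against 6.39 to 6.41 in the others, a gap within a narrow range. Mef2b stood at -0.76 in library 3, from 13 reads against none. Tnnt2, the cardiac troponin T gene, stood at 8.89 in library 3 against 7.30 to 7.40. The others rest on few reads: Itgam at -0.54 and Myh7 at -0.86 in library 1, and Actc1 at -2.56 and Myl7 at -2.56 in library 4. For these and for Mef2b, the remaining libraries lay at the value given to genes without reads, or close to it for Myl7 in library 1. A few reads in 1 library then give such a gap, so the rate of 1 in 20 does not apply to them.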

How the results depend on the processing

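Of 385 values recomputed under an alternative, 362 kept their direction (differences) or stayed within 1 SD or 1.5 times (levels and counts). Many of these could not have come out otherwise, so the count says little about robustness. A difference with 1 sign in 4 of 4 libraries keeps it when 1 library is left out. Leaving out 1 of 4 libraries cannot move a mean level by 1 SD, and median-ratio size factors left the mean levels as they were. No paired comparison between groups was possible because the series has 1 group, and pairing was used only for differences between genes within libraries. With an SD above 1, 0 members were variable against 3, and 5.8% of detected genes. As CPM of the reads on genes, mean levels were lower by construction, at 6.08 for Srf, 5.24 for Mkl1, 3.85 for Mkl2, 4.82 for Mef2a, 2.94 for Mef2c, 5.75 for Mef2d, 2.60 for Elk1 and 5.89 for Fhl2. Without division by length, Fhl2 minus Srf became -0.19, Elk1 minus Mef2c -0.33 and Fhl3 minus Fhl2 -0.013. The last was also -0.10 with the longest transcript, -0.12 with exons inside the deposited interval (an alternative chosen after seeing the data), and -0.076 to 0.53 when 1 library was left out; the cause was not tested. Means in place of medians gave 4.95 for the members, 2.63 for their paralogs, 5.70 for MEF2 regulators, 3.53 for SRF cofactors, 4.47 for ternary complex factor targets and 1.49 for MEF2 targets. With Smyd1 in place of the wrongly listed Bop1, an exchange made after the values were seen, the median of the MEF2 targets was 0.076 against 0.71, because 1 high gene leaves a list whose middle lies among genes near the detection threshold. Target genes in the library order of Srf numbered 14 to 26 when 1 library was left out, against 6.47% to 10.8% of all genes, and those within 0.5 of Srf 14 to 21, against 4.44% to 15.2%; both checks were chosen after seeing the data. Likeness does not depend on a scaling of whole libraries. Depth limits Myocd, Mef2b and Fhl4, which rest on at most 53 reads in a library.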
